A study of Mus musculus with 4 samples.

Results

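Heat shock chaperones are the proteins that fold other proteins and keep damaged ones from clumping, and the genes described here code for their main families and helper proteins. They were chosen by symbol alone: Hspa1a, Hspa1b, Hspa2, Hspa4, Hspa4l, Hspa8, Hspa9, Hspa13, Hspa14 and the Hspa12 genes, every Hspb gene with a digit, the Hsp90a genes, Hspd1, Hspe1, Hsph1, every Dnaja, Dnajb and Dnajc gene with a digit other than Dnajb11, and Cct2 to Cct8. Of 32200 gene symbols in the files, 77 matched, and 72 of these had at least 10 UMIs (unique molecular identifiers, each standing for 1 counted RNA molecule) over the 4 libraries. The 5 below that count were Dnajb7 with 5 UMIs, Hspb7 with 4, Cct8l1 with 2, and Hspb3 and Hspb9 with 0, and they are not described further. The 72 members were 9 HSP70 genes, 3 HSP110 genes, 2 HSP90 genes, 5 small heat shock protein genes, 4 Dnaja, 11 Dnajb and 28 Dnajc genes, the 2 mitochondrial chaperonin genes and 8 CCT genes. Most code for proteins of the cytosol, but not all. Among the others, Hspd1, Hspe1, Hspa9, Dnaja3, Dnajc11, Dnajc15 and Dnajc19 code for mitochondrial proteins, and Dnajb9, Dnajc1, Dnajc3, Dnajc10 and Hspa13 for proteins of the endoplasmic reticulum. These lists are not complete.

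RNA was measured in single epithelial cells of the gastric corpus, the acid-making body of the stomach, of C57BL6/J wild-type mice aged 6 to 7 weeks. The untreated mice received PBS. All other mice received L635, a compound toxic to the acid-secreting parietal cells, once by mouth at 350 mg/kg, and tissue was taken at day 1, at day 3 with AREG, or at day 3. AREG, amphiregulin in full, binds and activates the growth factor receptor EGFR; at what dose, by which route and when it was given is not stated in the sources used here. Each group was 1 library, so no difference has a replicate check and no test was possible; all intervals are 95% intervals for counting error only. The sources used here do not say how many mice went into a library.

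HSP70 proteins bind unfolded stretches of a protein and release them with ATP. J-domain proteins, made by the Dnaj genes, bring clients to HSP70 and set off its ATP use, while HSP110 proteins exchange its nucleotide. HSP90 finishes the folding of kinases and receptors, CCT is the ring-shaped cytosolic chaperonin that folds actin and tubulin, and Hspd1 and Hspe1 form the chaperonin of the mitochondrial matrix. Some members are made at all times, and others, above all Hspa1a and Hspa1b, are switched on by the transcription factor HSF1 when proteins misfold, during heat, toxic injury or the handling of tissue.

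HSF1 binds heat shock elements, repeats of the letters GAA in alternating direction. Bases before the starts of some inducible members that hold such letters are shown here, and other inducible members are not shown. Sequences are those of RefSeq for GRCm38.p6, a build other than the one the files use, and capitals mark heat shock element letters. The inducible pair is shown because its copies are nearly identical.
Hspa1a, chr17:34972157-34972406, minus strand: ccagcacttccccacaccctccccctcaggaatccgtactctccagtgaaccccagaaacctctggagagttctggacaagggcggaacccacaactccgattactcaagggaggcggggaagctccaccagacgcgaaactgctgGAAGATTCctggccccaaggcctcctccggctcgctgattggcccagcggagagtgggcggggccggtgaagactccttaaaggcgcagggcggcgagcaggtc
Hspa1b, chr17:34959239-34959488, minus strand: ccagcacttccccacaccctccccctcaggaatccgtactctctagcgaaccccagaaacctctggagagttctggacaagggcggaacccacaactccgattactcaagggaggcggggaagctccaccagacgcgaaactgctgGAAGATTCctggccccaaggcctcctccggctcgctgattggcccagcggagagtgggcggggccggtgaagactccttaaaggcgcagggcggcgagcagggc
Hsph1, chr5:149636347-149636384, minus strand: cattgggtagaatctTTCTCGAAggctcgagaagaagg
Hspd1 and Hspe1, chr1:55088053-55088082, plus strand: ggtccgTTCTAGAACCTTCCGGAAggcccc
Of the 250 bases before Hspa1a and Hspa1b, 247 are the same in both genes, or 98.8%, and the marked letters begin 104 bases before the start of either. Reads of the pair may have been split between copies in the authors' counting, so each gene's value is uncertain and their sum is also given. Hspd1 and Hspe1 lie head to head, with 215 bases between the start of Hspe1 and 1 of the listed starts of Hspd1. The marked run lies 89 to 72 bases before Hspe1. Another listed start of Hspd1 lies past the start of Hspe1 and has no such letters in the 250 bases before it.

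Of the 72 members, 57 were in the RefSeq promoter table. GAANNTTC or TTCNNGAA, each of which reads the same on both strands, was found in the 250 bases before a start of 15 of them, or 26.3%, against 14.5% of 27025 genes in the table. These were Cct2, Cct5, Dnaja1, Dnaja4, Dnajb4, Dnajb6, Dnajc10, Dnajc27, Hspa1a, Hspa1b, Hspb1, Hspb6, Hspd1, Hspe1 and Hsph1. Dnajb1, also stress-inducible, was in the table and had no such letters there. The longer GAANNTTCNNGAA or TTCNNGAANNTTC, which are reverse complements of each other and hold the shorter letters, was found in Dnajb6, Hspd1 and Hspe1, which is 5.26% of the 57 members, against 0.514% of all genes in the table. Hspd1 and Hspe1 share their stretch of DNA, and Hspa1a and Hspa1b are nearly identical there, so the matches within either pair are not independent. A gene counted if any of its listed starts had the letters. There were 76 stretches for the 57 members and 32851 for the 27025 genes, so the shares are not fully alike.

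Untreated, day 1, day 3 with AREG and day 3 libraries held 13871, 3926, 12918 and 7972 cells, with a median of 2503, 2724.5, 2684 and 3013 UMIs per cell. The cells together held 39375959 to 61495754 UMIs per library, and 0 to 3 cell barcodes were shared by any pair of libraries. Krt8, a keratin of simple epithelium, was at 912 to 2842 CPM (UMIs per 1000000 UMIs of the library's cells). Summed markers of fibroblasts, smooth muscle, macrophages, neutrophils and plasma cells were at most 8.13 CPM, with the plasma cell gene Mzb1 at 0 in every library; those of mast cells were at 18.1 CPM at day 1 and at most 1.23 CPM elsewhere, and those of endothelium at 30.3 to 65.3 CPM. The mix of cells differed between libraries. Parietal-like cells were 30.9%, 7.51%, 25.5% and 24.9% of cells, and 86.4% of day 1 cells lay in clusters that could not be named, against 1.16%, 0.728% and 0.740% in the untreated, AREG and day 3 libraries. A level over all cells of a library therefore does not separate the level within a cell type from the number of cells of that type. The 14 immediate early genes, which also respond to dissociation, summed to 1150, 2490, 1735 and 1371 CPM, and their part in the results was not tested. The 16 proliferation genes summed to 434, 925, 357 and 241 CPM.

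The members made up 0.482% of UMIs in untreated cells, 0.610% at day 1, 0.618% at day 3 with AREG and 0.586% at day 3. Hspa8, Hsp90ab1, Hspe1, Hsp90aa1 and Hspd1 alone held 53.7% of the members' UMIs. At the other end, 54 of the 72 members had at least 1000 UMIs over the 4 libraries and 67 had at least 100. Values of different genes are numbers of molecules, since each RNA is counted at its 3' end and not by its length.

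Hspa8, the HSP70 made at all times, was the most abundant member in every library, with 969 CPM in untreated cells, 1611 at day 1, 1353 at day 3 with AREG and 1052 at day 3. It was 1.66-fold higher at day 1 than in untreated cells (1.64 to 1.68) and 1.29-fold higher at day 3 with AREG than at day 3 (1.27 to 1.30). Its untreated and day 3 levels lay close together. Hspa9, the HSP70 of mitochondria, was at 154, 217, 267 and 263 CPM in the same order, so it was lowest in untreated cells and nearly equal in the day 3 libraries. Hspa13, of the endoplasmic reticulum, was at 5.66, 9.75, 7.36 and 6.93 CPM, and Hspa14, which works at ribosomes, at 20.7, 27.6, 20.9 and 19.8 CPM. Hspa2, Hspa12a and Hspa12b stayed at or below 2.44 CPM in every library. All 7 of these were higher at day 1 than in untreated cells, as were 77.7% of all genes.

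The inducible pair ran the other way. Hspa1a (ENSMUSG00000091971) was at 71.0 CPM in untreated cells, 30.02 at day 1, 97.3 at day 3 with AREG and 134 at day 3. Hspa1b (ENSMUSG00000090877) was at 61.9, 46.3, 133 and 157 CPM in the same order. Both were lowest at day 1 and highest at day 3. Their sum was 76.4 CPM at day 1 and 133 CPM in untreated cells, a ratio of 0.575 (0.551 to 0.599), and 290 CPM at day 3, which was 3.80-fold the day 1 sum (3.65 to 3.96) and 2.19-fold the untreated sum (2.13 to 2.25). With AREG the day 3 sum was 230 CPM, 0.791-fold that of day 3 without it (0.772 to 0.812). The fold was larger for Hspa1a, at 0.423 for day 1 over untreated cells (0.396 to 0.451), than for Hspa1b, at 0.749 (0.708 to 0.792).

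Barcodes with fewer than 50 UMIs, which mostly hold free RNA, carried Hspa1a at 77.3, 45.7, 114 and 182 CPM and Hspa1b at 66.3, 63.6, 145 and 200 CPM in untreated, day 1, day 3 with AREG and day 3 libraries. Free RNA thus had the same order of libraries as the cells, and its part in the cell values was not tested. Counted in cells thinned to 500 UMIs each, 8.13% of untreated cells had a UMI of either gene (7.68 to 8.60), 4.87% at day 1 (4.21 to 5.59), 11.7% at day 3 with AREG (11.2 to 12.3) and 14.95% at day 3 (14.2 to 15.8). Unthinned, the shares were 28.2%, 29.7%, 39.6% and 50.7%, so the lower day 1 share appears only at equal depth. No cell class is known to lack the pair; the lowest share was in endocrine-like cells, at 1.40% of 286 untreated cells with a median of 1272 UMIs and 2.15% of 93 cells at day 3 with AREG with a median of 2363.

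**Figure D1:**
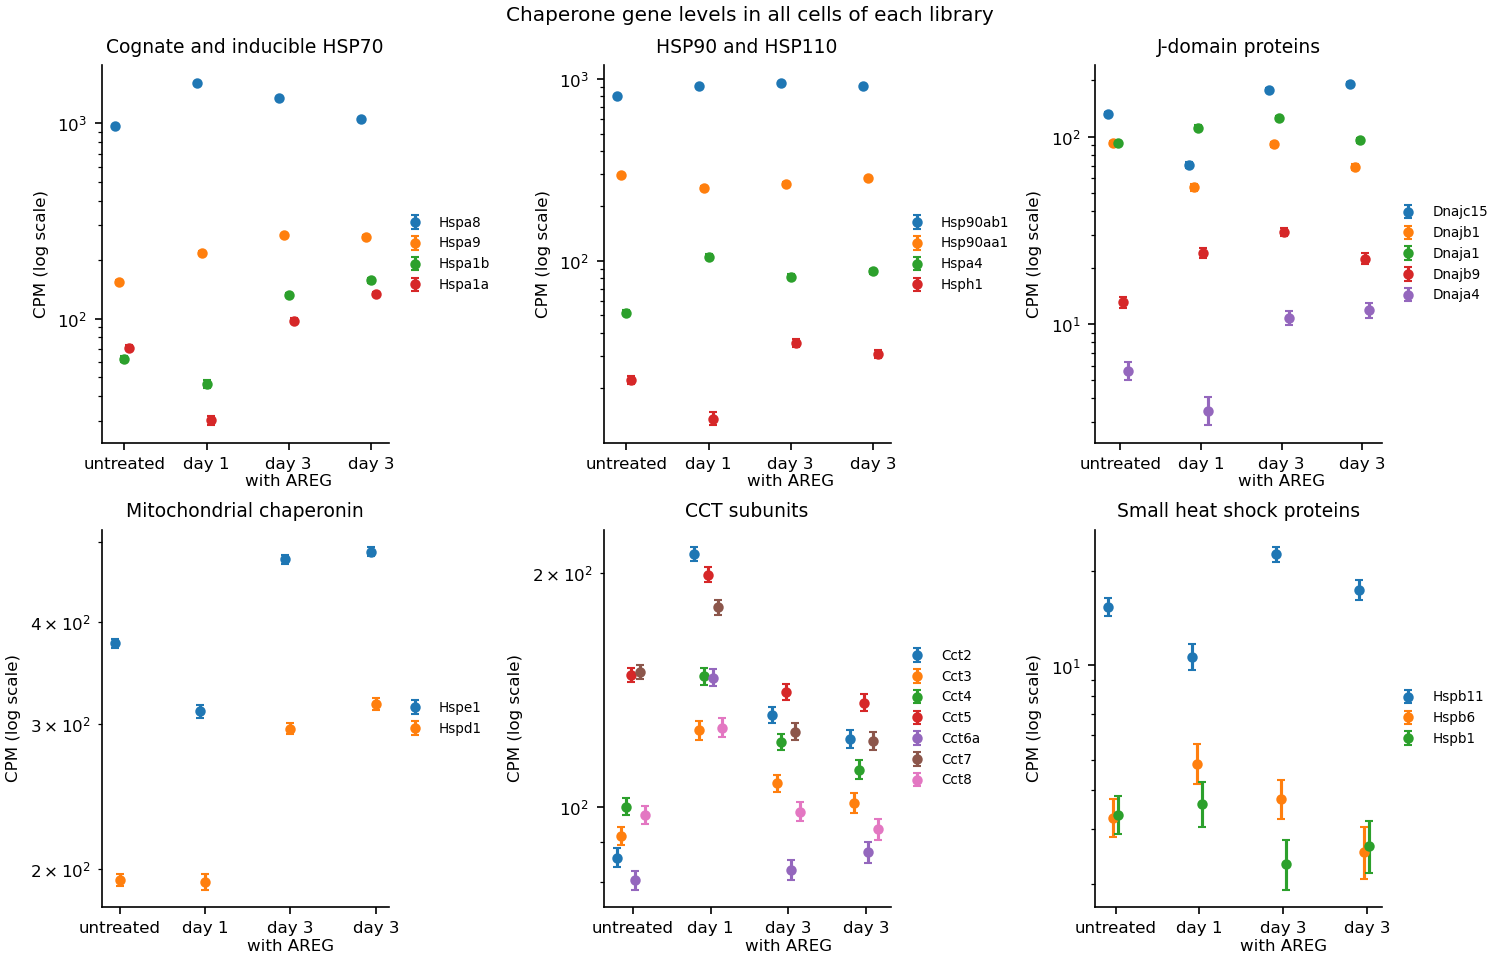
Levels of named members in all cells of each library, in CPM on a log axis, with 1 panel per family; points are the library's value and bars the 95% exact Poisson interval. Hspa1a and Hspa1b are lowest at day 1 and highest at day 3, while Hspa8, Hspa4 and the 7 CCT subunits drawn are highest at day 1.

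The HSP110 genes did not move as a group. Hspa4 was at 51.8, 105, 81.8 and 87.7 CPM in untreated, day 1, day 3 with AREG and day 3 cells, and Hspa4l, its close relative, at 5.77, 9.65, 9.41 and 8.26 CPM. Hsph1, the stress-inducible HSP110, was at 22.1, 13.6, 35.3 and 30.7 CPM. Hspa4 was 2.04-fold higher at day 1 than in untreated cells (1.94 to 2.13) and Hsph1 was 0.613-fold (0.554 to 0.678), the direction of the inducible HSP70 pair. Hsph1 was 2.26-fold higher at day 3 than at day 1 (2.04 to 2.51).

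HSP90 levels stayed close. Hsp90ab1, the HSP90 made at all times, was at 802, 908, 947 and 914 CPM, and Hsp90aa1, the form that stress raises, at 295, 251, 265 and 284 CPM. Day 1 over untreated folds were 1.13 for Hsp90ab1 (1.12 to 1.15) and 0.850 for Hsp90aa1 (0.829 to 0.871), and the HSP90 folds of the other comparisons were 0.935 to 1.14. With mitochondrial genes, ribosomal protein genes and the 20 most abundant other genes left out of the total, both HSP90 genes were lower at day 1 than in untreated cells, with a median log2 ratio of -0.39, and so they were with each cell or each cell class given equal weight, with medians of -0.24 to -0.63.

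Among the J-domain genes, Dnajb1, the stress-inducible partner of HSP70, was at 92.0 CPM in untreated cells, 53.7 at day 1, 91.1 at day 3 with AREG and 69.1 at day 3. It was 0.584-fold at day 1 against untreated cells (0.555 to 0.614) and 1.32-fold higher at day 3 with AREG than at day 3 (1.26 to 1.38). Dnaja1, which pairs with Hspa8 and is also heat-inducible, was at 92.3, 112, 126 and 95.7 CPM, and Dnaja2 at 47.5, 91.0, 73.5 and 76.6 CPM. Day 1 was the lowest of the 4 libraries for Dnajb1 but not for Dnaja1 or Dnaja2. Dnaja4 was scarce, at 5.63, 3.43, 10.8 and 11.8 CPM, and was 3.44-fold higher at day 3 than at day 1 (2.84 to 4.20). Dnajb4 was at 6.46, 14.5, 19.04 and 14.8 CPM and Dnajb14, a membrane-anchored J protein, at 10.0, 21.2, 18.1 and 20.5 CPM, so these were lowest in untreated cells. Dnajb9, which acts on HSPA5 in the endoplasmic reticulum, was at 13.03, 23.9, 31.0 and 22.3 CPM and was 1.39-fold higher at day 3 with AREG than at day 3 (1.28 to 1.504).

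The genes of mitochondrial J proteins did not share an order. Dnajc15, of the inner membrane, had the most UMIs of the J-domain genes, at 133, 70.4, 178 and 190 CPM in untreated, day 1, day 3 with AREG and day 3 cells. Dnaja3, of the matrix, was at 33.8, 44.4, 75.5 and 74.5 CPM, and Dnajc19 at 65.4, 74.1, 76.1 and 76.0 CPM. Dnajc15 was lowest at day 1, whereas Dnaja3 was lowest in untreated cells and 2.20-fold higher at day 3 than there (2.08 to 2.33). Dnajc28 was scarce, at 3.06, 0.737, 4.61 and 4.95 CPM, and 6.72-fold higher at day 3 than at day 1 (4.55 to 10.3). Parietal-like cells, a cell type rich in mitochondria, were 30.9%, 7.51%, 25.5% and 24.9% of cells in the same order. Dnajc15 and Dnajc28 were also lowest at day 1 but were highest at day 3, and Dnaja3 and Dnajc19 were lowest in untreated cells. The part of parietal-like cells in these levels was not tested.

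Dnajc2, a J protein of the ribosome, was at 14.1, 36.8, 23.4 and 24.3 CPM, and Dnajc21, which takes part in making ribosomes, at 8.29, 20.6, 14.96 and 16.9 CPM. They were highest at day 1, 2.61-fold (2.399 to 2.84) and 2.48-fold (2.22 to 2.78) the untreated levels. Dnajc9, a histone chaperone of dividing cells, was at 14.6, 24.6, 8.92 and 9.29 CPM, and its day 3 level was 0.378-fold that of day 1 (0.335 to 0.426). The proliferation genes had the same order of day 1 over untreated over both day 3 libraries, and their part was not tested. Over 13 other settings the log2 ratio of Dnajc9 for day 1 over untreated ran between -0.92 and 0.74, above 0 in 11. Untreated Dnajc9 was highest in endocrine-like cells, at 49.1 CPM, then in proliferating-like cells, at 40.1 CPM. At day 3, with no endocrine-like class measured, it was highest in proliferating-like cells, at 33.5 CPM. Dnajc13, of endosomes, was at 7.82, 16.1, 18.5 and 16.9 CPM.

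Small heat shock protein genes were scarce in all libraries. Hspb11, a part of the ciliary transport machinery by its known role, was the most abundant, at 15.4, 10.6, 22.7 and 17.4 CPM. Hspb6 was at 3.25, 4.85, 3.74 and 2.52 CPM and Hspb1 at 3.33, 3.61, 2.31 and 2.64 CPM. A single day 1 cell held 23.2% of the day 1 UMIs of Hspb1. Hspb2 and Hspb8 did not exceed 0.787 CPM.

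The mitochondrial chaperonin was lower at day 1 and in untreated cells than in either day 3 library. Hspe1 was at 377 CPM in untreated cells, 311 at day 1, 476 at day 3 with AREG and 486 at day 3, and Hspd1 at 194, 193, 297 and 318 CPM. Their sum at day 3 was 1.59-fold that of day 1 (1.57 to 1.62) and 1.41-fold that of untreated cells (1.39 to 1.43). It was 0.961-fold with AREG against day 3 without it (0.947 to 0.975). With every cell given the same weight, the median log2 ratio of the pair for day 3 over untreated cells was 0.10 with 1 gene on each side, in place of 0.54.

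All 8 CCT genes were higher at day 1 than in untreated cells and lower at day 3 than at day 1. Cct2 was at 86.0, 211, 131 and 122 CPM in untreated, day 1, day 3 with AREG and day 3 cells, a day 1 over untreated fold of 2.46 (2.37 to 2.54). Cct6a was at 80.4, 147, 82.9 and 87.3 CPM and Cct5 at 148, 199, 140 and 136 CPM. Cct7 had the smallest day 1 over untreated fold of the 8, at 1.21, with 149, 180, 125 and 122 CPM. Of all genes, 77.7% were higher at day 1 than in untreated cells. The median log2 ratio of the 8 CCT genes was 0.44 for day 1 over untreated cells, against 0.26 over all genes. It was 0.64 over the 7755 genes with 10 CPM or more in one of the libraries. The CCT median thus lay between these values. The 7755 genes were not matched to the level of the CCT genes, and a gene can enter that set through only the library where it is high. For day 3 over day 1 it was -0.50, against -0.02 and -0.07. The size varied with the weighting and the scaling, whose part was not tested: with cell classes of a finer clustering given the same weight the median was 0.06 and 5 of 8 genes were higher at day 1, and with the most abundant genes left out of the total it was 0.14 and 7 of 8. For day 3 over day 1 it was -0.04 with 5 of 8 lower under the finer clustering with equal weights.

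**Figure D2:**
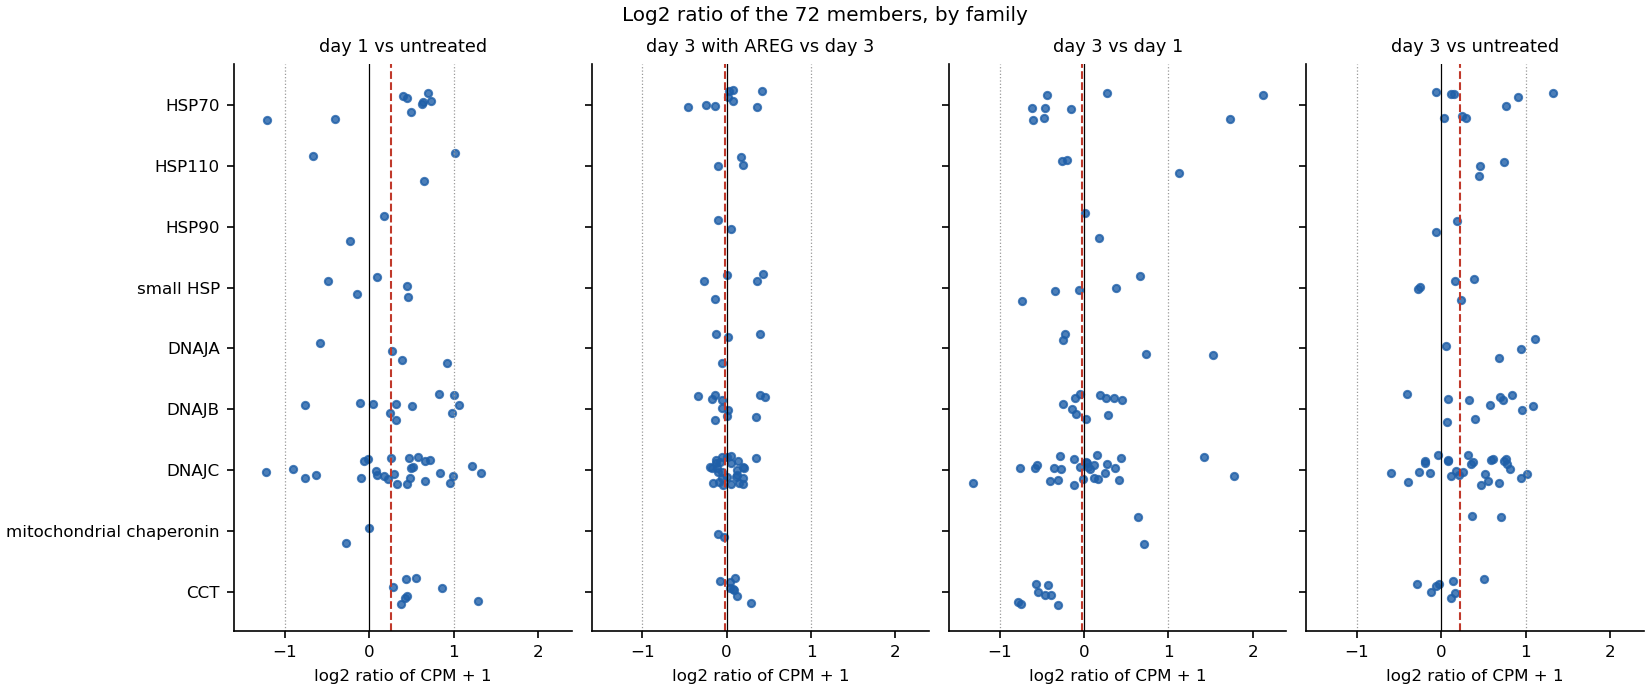
Log2 ratio of CPM + 1 for each of the 72 members in all cells, by family, in the 4 comparisons; each point is a gene, the dashed line is the median of all 24243 genes, the dotted lines mark 2-fold, and the height of a point within its family row is arbitrary. All 8 CCT genes lie right of 0 for day 1 over untreated and left of 0 for day 3 over day 1, and no member reaches 2-fold for day 3 with AREG over day 3.

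Day 1 was set against untreated to describe acute injury. Of the 72 members, 6 were at least 2-fold higher on the log2(CPM + 1) scale, namely Dnajc2, Cct2, Dnajc21, Dnajb4, Hspa4 and Dnajb14. That is 8.33% of members, and 14.5% of all 24243 genes with at least 10 UMIs passed in that direction. Hspa1a and Dnajc28 were at least 2-fold lower, which is 2.78% of members, against 1.56% of all genes. The median log2 ratio was 0.41 over the members and 0.26 over all genes. The order turned when genes under 10 CPM in both libraries were left out, with medians of 0.43 for 49 members and 0.64 for 7755 genes. At least 2-fold higher were then 12.2% of these members and 29.4% of these genes. At least 2-fold lower were 2.04% of these members, now fewer than the 2.77% of these genes. With the most abundant genes left out of the total the calls were 1 higher and 7 lower, against 9.62% and 3.43% of all genes, and the medians 0.14 for the members and 0.16 for all genes.

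Day 3 was set against day 1 to describe recovery. At least 2-fold higher at day 3 were Hspa1a, Dnajc28, Hspa1b, Dnaja4, Dnajc15 and Hsph1, 6 members or 8.33%, against 2.79% of all genes. Of these, 4 are J-domain or HSP110 genes and 2 are the near-identical HSP70 pair, which cannot be counted as independent. Dnajc9 alone was at least 2-fold lower, 1.39% of members against 4.36% of all genes. Without genes under 10 CPM in both libraries, 10.0% of 50 members and 5.45% of 8074 genes were at least 2-fold higher. At least 2-fold lower were 2.0% of these members and 7.23% of these genes. The members' median log2 ratio was -0.05 and that of all genes -0.02.

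Day 3 set against untreated gave 4 members at least 2-fold higher, Hspa1b, Dnaja3, Dnajb4 and Dnajc13, or 5.56% against 9.26% of all genes. No member was at least 2-fold lower, against 0.825% of all genes. Medians were 0.31 for the members and 0.22 for all genes, and the order turned here too without genes under 10 CPM in both libraries, with 0.37 for 50 members and 0.57 for 7488 genes. At least 2-fold higher were then 8.0% of these members and 21.2% of these genes. The untreated, day 1 and day 3 comparisons share libraries, so their values are not independent of each other.

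Day 3 with AREG was set against day 3 without it to describe the addition of an EGFR ligand. No member was at least 2-fold higher, against 0.0454% of all genes, and none was at least 2-fold lower, against 0.202%. The median log2 ratio was 0.02 over the members and -0.02 over all genes. The highest ratios among members with at least 10 CPM were those of Dnajb9, Dnaja1 and Dnajb1, with Dnaja1 1.32-fold higher (1.27 to 1.37). The lowest were those of Hspa1a, at 0.728-fold (0.700 to 0.756), Hspa1b, at 0.846-fold (0.818 to 0.875), and Dnajb14, at 0.883-fold (0.804 to 0.969). The inducible HSP70 pair and its partner Dnajb1 thus lay at opposite ends of this comparison.

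Members were next measured within cell classes, made by clustering without the members and named after markers. Different clusters hold a class in different libraries: parietal-like cells lay mainly in clusters 1 and 13 in untreated cells, in cluster 15 at day 1 and in cluster 0 in both day 3 libraries. For day 1 pit-like cells, the mucus-making cells of the surface, the finer clustering (Leiden resolution 2) was used, with 1284 cells, because at resolution 1 there were only 67 shallow ones. A cluster that is nearly all of 1 library cannot be told apart from that library. The names chief-like and neck-like depend on the resolution: at resolution 0.5, 63.7% of untreated, 60.1% of day 3 with AREG and 57.1% of day 3 cells that are chief-like here are named neck-like. Untreated chief-like cells lay mainly in clusters 8 and 11, and those of day 1 and both day 3 libraries in cluster 10.

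In untreated cells the members were unevenly spread over 7 classes. Dnajc12, known as a partner of the enzymes that make serotonin and dopamine, was at 416 CPM in endocrine-like cells. That was 15.1-fold its level in the next class, the 174 neck-like cells, at 27.5 CPM. Hspb1 was at 179 CPM in endocrine-like cells, 10.7-fold the next class, tuft-like cells, at 16.8 CPM from 4 UMIs. Both folds rest on thin counts in the next class and are rough. Dnajc15 was highest in parietal-like cells, at 409 CPM and 4.26-fold the next class, as were Dnaja3, at 75.3 CPM and 2.28-fold, and Hspa9, at 339 CPM and 2.05-fold. Hspd1, Hspe1 and Dnajc11 were also highest in parietal-like cells, at 313, 585 and 45.2 CPM, though Hspd1 and Hspe1 were within 1.042-fold of proliferating-like cells. Dnajc19 was highest in endocrine-like cells, at 122 CPM. Of the 7 members first listed as mitochondrial, 6 were thus highest in parietal-like cells, Hspd1 and Hspe1 only narrowly. For comparison, 2180 of 11473 genes were highest there. That list is not complete, and a link between mitochondrial members and parietal-like cells was not tested. Among J-domain genes outside the list, Dnajc28 was highest in parietal-like cells, at 10.95 CPM, and Dnajc30 in tuft-like cells, at 37.8 CPM. Hspa1a was highest in neck-like cells, at 281 CPM from 51 UMIs in 174 cells, with 140 CPM in parietal-like and 19.2 CPM in endocrine-like cells. At resolution 0.5 untreated neck-like cells had Hspa1a at 132 CPM, from 1022 UMIs in 2219 cells. That is below the 140 CPM of parietal-like cells here, so this rank may depend on the resolution. Hspa8 differed less, with 1665 CPM in tuft-like, 1661 in parietal-like and 561 in chief-like cells. Chief-like cells, the makers of digestive enzymes, had the lowest summed level of the members in the untreated library, 2795 CPM, against 7710 CPM in parietal-like cells. Of 58 untreated members with at least 100 UMIs over the 7 classes, 12 were highest in parietal-like and 22 in endocrine-like cells, 20.7% and 37.9%, whereas of 11473 genes 2180 and 2531 were. With AREG at day 3, over 6 classes, 31 of 58 were highest in parietal-like cells, 53.4% against 24.6% of genes. At day 3, over 5 classes without endocrine-like and tuft-like cells, it was 31 of 57, 54.4% against 29.8% of genes. The classes compared differ between libraries, so these shares are not a change over time.

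Hspa1a and Hspa1b were lower at day 1 than untreated within both parietal-like and pit-like cells. In parietal-like cells Hspa1a was at 140 CPM untreated, 32.7 at day 1, 147 at day 3 with AREG and 180 at day 3, and Hspa1b at 145, 39.5, 188 and 207 CPM. The day 1 over untreated folds were 0.234 for Hspa1a (0.193 to 0.283) and 0.271 for Hspa1b (0.227 to 0.322), both further from even than over all cells. In pit-like cells Hspa1a was at 40.4, 15.1, 67.2 and 98.9 CPM and Hspa1b at 37.6, 28.6, 98.6 and 114 CPM. Their folds there were 0.373 (0.318 to 0.436) and 0.759 (0.670 to 0.859). Chief-like cells, with 68 cells at day 1, had Hspa1a at 37.7 CPM at day 1 and 46.8 CPM untreated, 0.805-fold with an interval that includes no difference (0.474 to 1.28). Over 14988 genes in chief-like cells the median log2 ratio was 0.85, and 44.3% were at least 2-fold higher at day 1. In the unnamed day 1 clusters 10 and 24 of the finer clustering, Hspa1a was at 28.1 and 76.1 CPM.

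With AREG, Hspa1a was lower at day 3 in every class compared. It was at 97.4 CPM with AREG and 220 without in neck-like cells, 0.443-fold (0.393 to 0.499), and at 31.0 and 66.6 CPM in chief-like cells, 0.466-fold (0.381 to 0.568). The fold was 0.731 in proliferating-like cells (0.620 to 0.864), 0.680 in pit-like cells (0.633 to 0.730) and 0.818 in parietal-like cells (0.775 to 0.863). Hspa1b was at 137 CPM with AREG and 294 without in neck-like cells, 0.464-fold (0.419 to 0.514), and at 188 and 207 CPM in parietal-like cells, 0.910-fold (0.866 to 0.955). At resolution 0.5, a setting added after seeing the data, the Hspa1a folds were 0.444 in neck-like cells (0.407 to 0.4845) and 0.763 in chief-like cells (0.504 to 1.14), and the Hspa1b folds 0.528 (0.490 to 0.569) and 1.04 (0.779 to 1.39). The lower chief-like levels with AREG thus depend on the resolution, the neck-like ones do not between these settings, and the difference between classes was not tested.

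**Figure D3:**
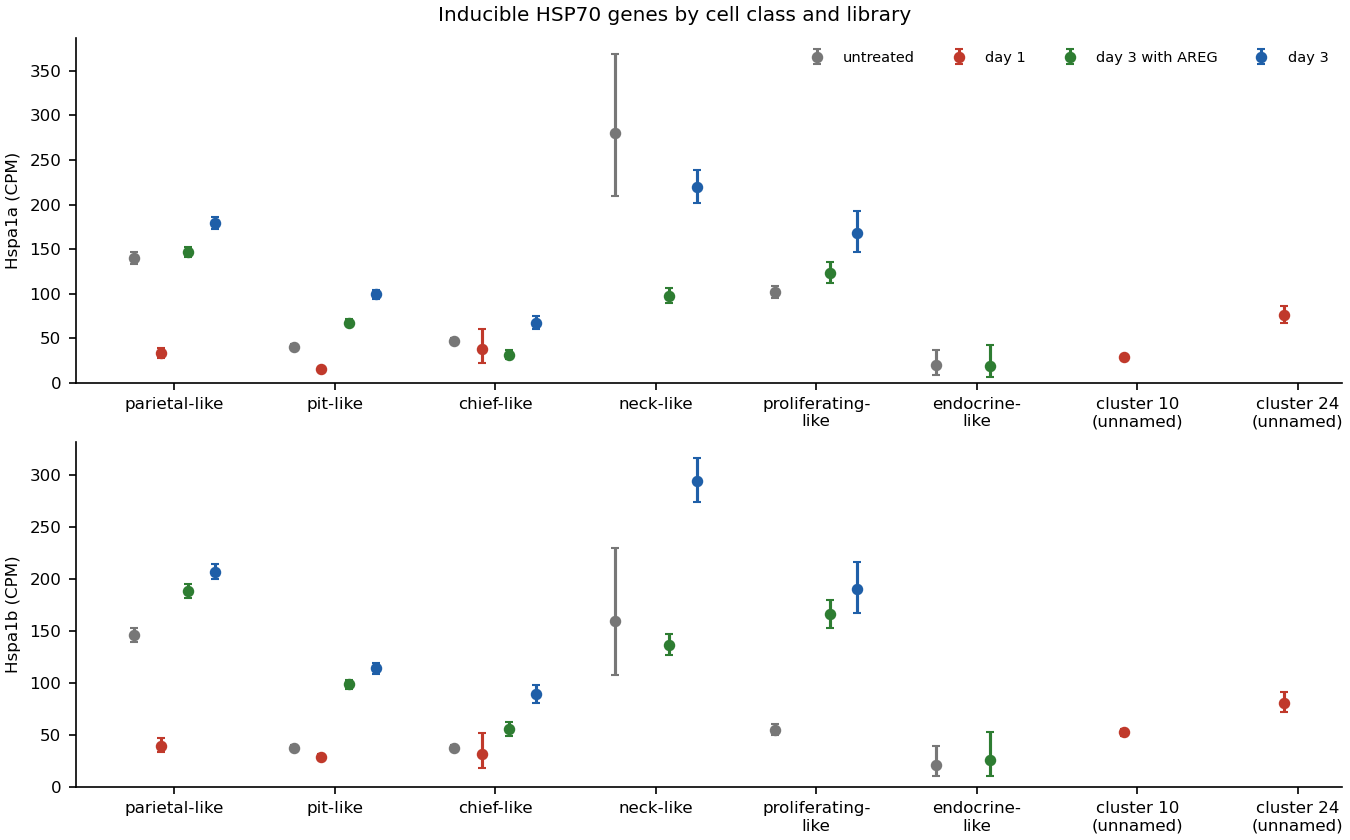
CPM of Hspa1a (upper panel) and Hspa1b (lower panel) by cell class and library, with 95% exact Poisson intervals; pit-like cells and clusters 10 and 24 are of Leiden resolution 2, and a class with fewer than 50 cells in a library has no point. Day 1 points lie below the untreated points in parietal-like and pit-like cells, and day 3 points lie above those with AREG in every class that has both.

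Hsph1 was lower at day 1 in the same 2 classes. In parietal-like cells it was at 22.5 CPM at day 1 and 49.3 CPM untreated, 0.457-fold (0.358 to 0.578), and in pit-like cells at 7.46 and 16.3 CPM, 0.459-fold (0.363 to 0.576). Chief-like cells ran the other way, with Hsph1 at 20.9 CPM at day 1, from 10 UMIs, and 7.12 CPM untreated. Most genes were higher at day 1 in chief-like cells, with an all-gene median log2 ratio of 0.85. Dnajb1 was lower at day 1 in parietal-like cells, with 286 of 3548134 UMIs, against 1681 of 12599171 untreated. It was not lower in pit-like cells, with 468 of 12735096 UMIs at day 1 and 810 of 23617623 untreated. Nor was it lower in chief-like cells, with 76 of 477468 and 2037 of 15736902 UMIs. Tuft-like cells had less Dnajb1 at day 1, from 6 UMIs. Dnajc15 was at 205 CPM at day 1 and 409 CPM untreated in parietal-like cells, 0.502-fold (0.464 to 0.543). In pit-like cells it was at 31.8 and 61.2 CPM, 0.519-fold (0.464 to 0.580), so the lower day 1 level of Dnajc15 was present within classes as well. Of 65 members measured in both classes, 21 were higher at day 1 than untreated in both, 15 were lower in both, 14 were higher in parietal-like and lower in pit-like cells, and 15 the reverse. These are 32.3%, 23.1%, 21.5% and 23.1% of members, against 54.2%, 14.4%, 12.7% and 18.8% of the 13864 genes measured in both classes. Hspa1a and Hsph1, 3.08% of members, were at least 2-fold lower in both, against 0.577% of those genes, and no member was at least 2-fold higher in both, against 4.59%.

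CCT subunits differed in direction between these classes. Summed over the 8 genes, parietal-like cells had 1130 CPM at day 1 and 783 CPM untreated, whereas pit-like cells had 577 CPM at day 1 and 712 CPM untreated. At resolution 1, with 67 pit-like cells at day 1, the pit-like sums were 813 CPM at day 1 and 700.3 CPM untreated, so the opposite direction depends on the resolution. Cct5 was at 205 and 143 CPM in parietal-like cells at day 1 and untreated, and at 93.7 and 139 CPM in pit-like cells. Cct2 was the exception, higher at day 1 in both, with 206 and 105 CPM in parietal-like and 113 and 85.7 CPM in pit-like cells. The unnamed day 1 clusters 10 and 24 had CCT sums of 1551 and 1223 CPM, and untreated proliferating-like cells 1340 CPM. Proliferating-like cells had 870 CPM at day 3 with AREG and 1001 CPM at day 3.

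Mitochondrial chaperonin levels split the classes at day 3. In parietal-like cells the sum of Hspd1 and Hspe1 was 899 CPM untreated, 550 at day 1, 1486 at day 3 with AREG and 1582 at day 3. In pit-like cells it was 450, 167, 346 and 307 CPM. Day 1 was the lowest in both, but day 3 lay above untreated in parietal-like cells and below it in pit-like cells. Hspd1 in parietal-like cells was 2.05-fold higher at day 3 than untreated (1.98 to 2.13), with 642 and 313 CPM, and in pit-like cells it was 0.809-fold (0.767 to 0.852), with 127 and 157 CPM.

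**Figure D4:**
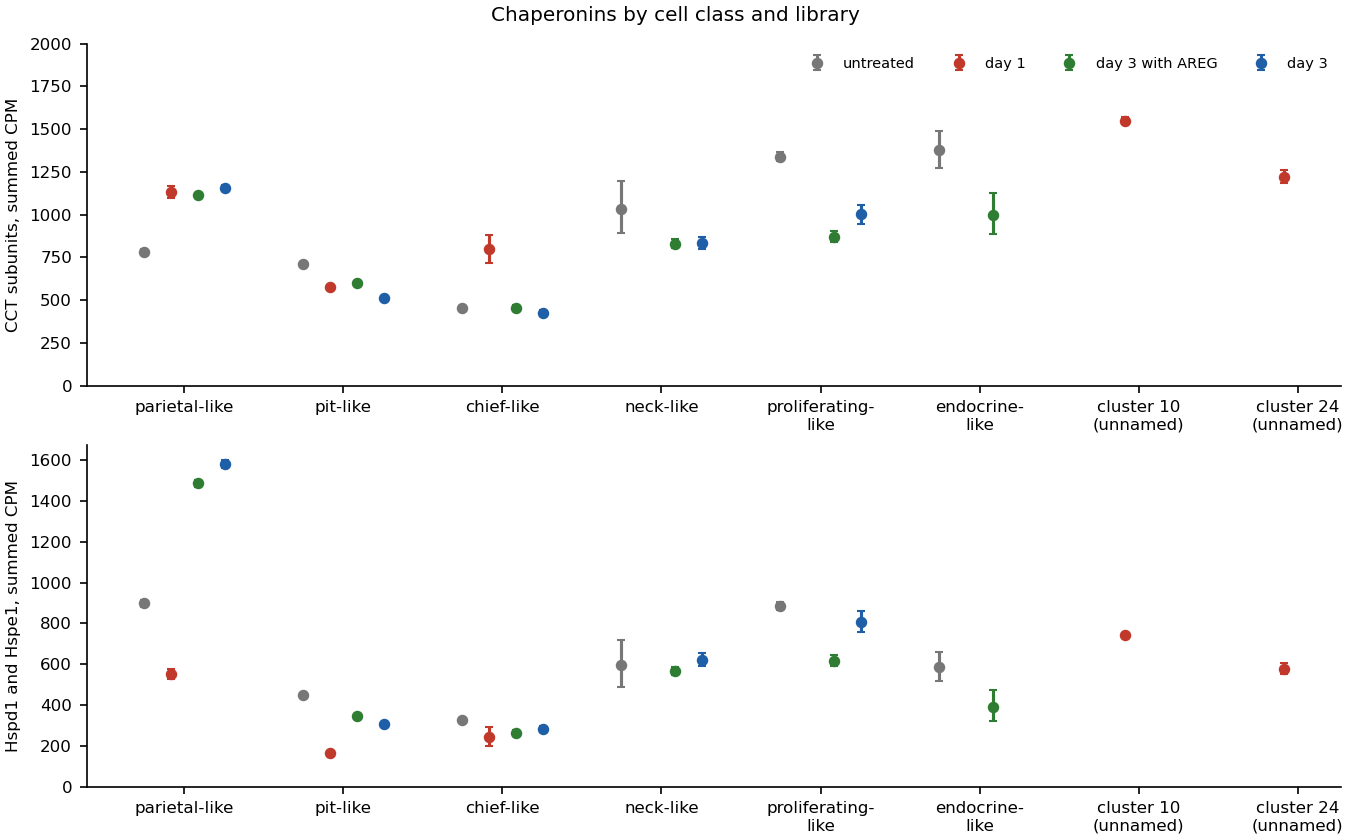
Summed CPM of the 8 CCT genes (upper panel) and of Hspd1 and Hspe1 (lower panel) by cell class and library, with 95% exact Poisson intervals; pit-like cells and clusters 10 and 24 are of Leiden resolution 2. Day 1 lies above untreated for CCT in parietal-like cells and below it in pit-like cells, and Hspd1 with Hspe1 in parietal-like cells is at 1486 and 1582 CPM in the day 3 libraries, above 899 CPM untreated.

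Hsp90aa1 was further from even in pit-like cells than over all cells, and was there at 242 CPM untreated, 80.2 at day 1, 170 at day 3 with AREG and 146 at day 3. The day 1 over untreated fold was 0.331 there (0.310 to 0.354) and 0.980 in parietal-like cells (0.924 to 1.04). Dnajb9 was at 25.2 CPM at day 1 and 7.16 CPM untreated in pit-like cells, 3.52-fold (2.91 to 4.27), and at 40.6 and 27.0 CPM in parietal-like cells, 1.504-fold (1.23 to 1.83). Over all genes in chief-like cells the median log2 ratio of day 1 over untreated was 0.85, and that of Dnajb9 was 2.71. Dnajb9 was there at 12.96 CPM untreated, 90.1 at day 1 from 68 cells, 71.3 at day 3 with AREG and 44.6 at day 3. It was higher after L635 than untreated in each of these, save in parietal-like cells of the day 3 libraries, with 25.9 and 20.6 CPM with and without AREG.

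Dnajb9 was higher with AREG than without it at day 3 in each of the 5 classes that could be compared. It was at 71.3 and 44.6 CPM in chief-like cells with and without AREG, 1.60-fold (1.34 to 1.90), and at 56.8 and 41.3 CPM in neck-like cells, 1.38-fold (1.10 to 1.73). The folds were 1.27 in pit-like cells (1.08 to 1.49), 1.26 in parietal-like cells (1.09 to 1.45) and 3.21 in proliferating-like cells, the last from 7 UMIs without AREG (1.47 to 8.32). At resolution 0.5 they were 1.93 in chief-like cells (1.49 to 2.499) and 1.11 in neck-like cells, an interval that includes no difference (0.953 to 1.29). Hsp90aa1 was split: with and without AREG it was at 337 and 467 CPM in proliferating-like cells, 0.721-fold (0.654 to 0.797), and at 216 and 284 CPM in neck-like cells, 0.762-fold (0.694 to 0.836), but at 170 and 146 CPM in pit-like cells, 1.16-fold (1.10 to 1.22). Hspd1 was at 174 CPM with AREG and 267 CPM without in proliferating-like cells, 0.652-fold (0.570 to 0.746), and at 620.4 and 642 CPM in parietal-like cells, 0.966-fold (0.940 to 0.993). Over all cells the corresponding folds were 0.935 for Hsp90aa1 and 0.933 for Hspd1, so these classes lay on either side of the value for the whole library.

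**Figure D5:**
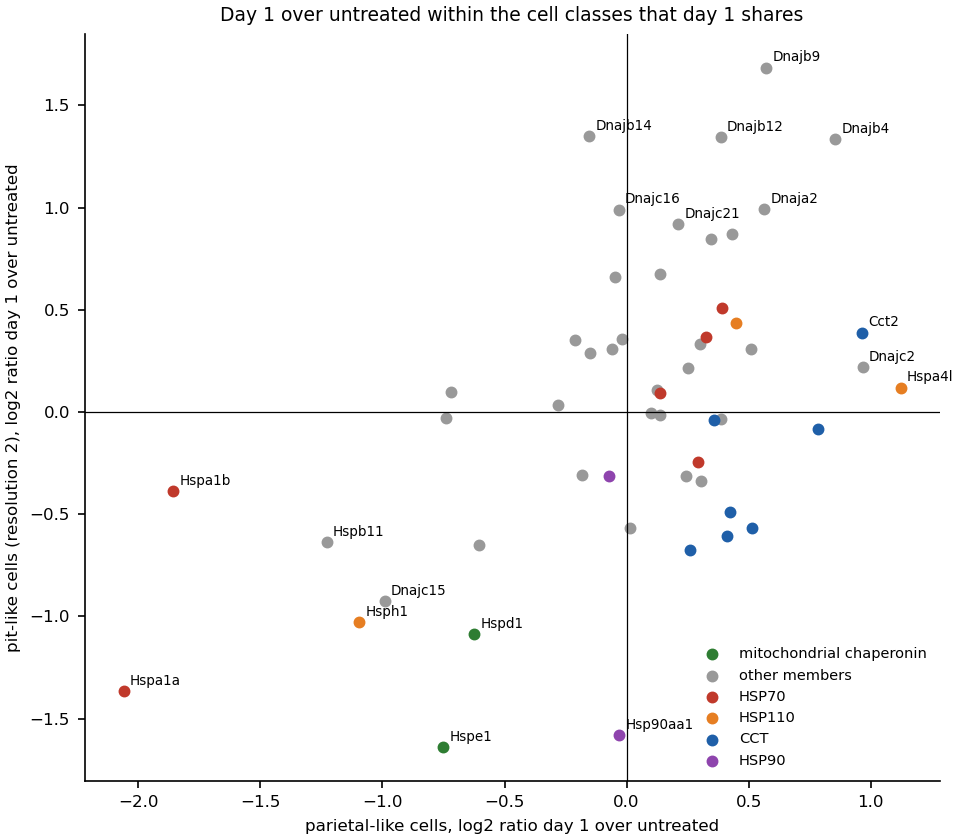
Log2 ratio of CPM + 1 for day 1 over untreated in parietal-like cells (horizontal axis) and pit-like cells of Leiden resolution 2 (vertical axis); points are members with at least 100 UMIs in each class, coloured by family, and members at 0.9 or beyond on either axis are named. Hspa1a, Hspa1b, Hsph1, Hspd1 and Hspe1 lie lower left, and most CCT genes lie right of 0 and below it.

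Partners and regulators of the members were read from lists outside the 72 genes. Hsf1, the factor that switches on the inducible members, was at 7.79, 8.36, 8.04 and 7.81 CPM in untreated, day 1, day 3 with AREG and day 3 cells, and the median log2 ratio of 5 heat shock factor genes was 0.09 for day 1 over untreated. Of 10 other known targets of HSF1, 7 were lower and 3 higher at day 1 than in untreated cells, with a median of -0.26. With AREG at day 3, 9 were higher than at day 3, with a median of 0.20. Of all genes, 77.7% were higher at day 1 than in untreated cells, with a median of 0.26. For day 3 with AREG over day 3, 43.7% of all genes were higher, with a median of -0.02. Ubb, a ubiquitin gene, was at 1731, 974, 885 and 743 CPM and Cryab at 10.8, 2.18, 10.9 and 8.62 CPM. The 10 nucleotide exchange and BAG genes had a median of 0.45 for day 1 over untreated and -0.04 for AREG over day 3, and Bag3 was at 23.2, 30.6, 43.2 and 47.7 CPM. Of 17 HSP90 co-chaperone genes, 10 were higher and 7 lower at day 1, with a median of 0.03, below the 0.26 of all genes. Fkbp5, a glucocorticoid-induced partner of HSP90, was at 28.9, 153, 33.3 and 30.2 CPM. Tcp1, the CCT subunit that the symbol rule leaves out, was at 111, 166, 131 and 122 CPM, and its list with the prefoldins had a median of 0.36 for day 1 over untreated. The 12 chaperone genes of the endoplasmic reticulum had a median of 0.10, with Hspa5 at 295, 317, 352 and 304 CPM. The immediate early genes had a median of 1.255 and the proliferation genes one of 1.251.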

How the data were processed

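The deposited values are raw UMI counts per gene and barcode from 4 PIPseq T20 3' libraries, 1 per group, with 25000 cells loaded per capture after 5 min in TrypLE with 10 nM Y27632 at 37 °C, per the labels' protocols. The barcode and gene lists deposited by the authors hold no other values. Per the submitters' processing notes the build is mm39, also named GRCm39; aligner and counting program: not given in the sources used here. Members and gene lists were chosen with earlier results of these data known.

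Cells were barcodes with at least 500 UMIs, 200 genes and at most 50% mitochondrial UMIs. Scrublet marked 0 to 0.187% of cells, which were removed; at so low a share it cannot have found the doublets. Scanpy 1.11.5 clustered all cells without the members (2000 variable genes, 40 components, 15 neighbours, Leiden resolution 1). Of 2 forms of the neighbour graph and 4 of the naming rule, the last was chosen after clusters were seen; it asks for at least 3 markers. Rebuilt classes are therefore called parietal-like and so on, and classes under 50 cells were not used. Counts were summed per library or class, put on the CPM scale, and set against each other as log2 ratios of CPM + 1, with at least 2-fold counted. Folds printed are ratios without the added 1, with exact conditional binomial intervals; levels have exact Poisson and shares exact Clopper-Pearson intervals. Interval coverage was tried only on simulated Poisson counts, the error that the intervals already assume. It therefore cannot show how they cover spread between cells or between mice. Members named were the 3 highest and 3 lowest ratios among those with at least 10 CPM in either library, per comparison and class, and the 2 with most UMIs per family; others were chosen after their values were seen. Alternatives were 11 planned settings for all cells and 3 added ones, the class-weighted finer clustering, the exclusion of unnamed clusters 17 to 20, and chief-like and neck-like values at Leiden resolution 0.5.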

Additional observations from a re-analysis of the deposited data

Results flagged for a closer look

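Each of 6 members was at least 2-fold higher or lower in 1 cell class and, by at least 0.32 on the log2 scale, the other way in another, with at least 200 UMIs over both libraries; these limits were chosen after the data were seen, and none of the differences was tested. Log2 ratios of CPM + 1 follow. Dnajc12 was higher at day 1 than untreated in chief-like cells, at 1.19 from 68 day 1 cells, and lower in parietal-like cells, at -0.74. The medians over all genes for day 1 over untreated were 0.85 in chief-like and 0.26 in parietal-like cells. Cct3 was higher at day 3 than untreated in parietal-like cells, at 0.68, and lower in neck-like cells, at -1.21. Dnajb9 was higher at day 3 than untreated in chief-like cells, at 1.71, and lower in parietal-like cells, at -0.37. Dnajc22 was higher at day 3 than untreated in parietal-like cells, at 1.23, and lower in proliferating-like cells, at -0.41. Hspa1a was higher at day 3 than untreated in pit-like cells of Leiden resolution 1, at 1.29, and lower in neck-like cells, at -0.35. Hspd1 was higher at day 3 than untreated in parietal-like cells, at 1.03, and lower in chief-like cells, at -0.34. The chief-like and neck-like names exchange with the resolution. With the classes of resolution 0.5, the day 3 over untreated ratio of Dnajb9 in chief-like cells was 1.97 and that of Cct3 in neck-like cells -0.35, but that of Hspa1a in neck-like cells was 0.45 and that of Hspd1 in chief-like cells 1.69, so the opposite directions of Hspa1a and Hspd1 do not hold there. The day 1 value of Dnajc12 in chief-like cells could not be had at that resolution, with 6 such cells.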

How the results depend on the processing

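With 1 library per group, no setting gives a replicate check. No paired analysis was possible because each group is 1 library and the result comes from no test. Settings not named below left each median within the 95% order-statistic interval of the reported median and each count within 1.5 times. For day 1 over untreated, where the median was 0.41 with 6 members at least 2-fold higher and 2 lower, a pseudocount of 10 CPM gave 0.17, 1 and 1, against an all-gene median of 0.05; CPM over a total that leaves out mitochondrial genes, ribosomal protein genes and a further 20 genes of highest level gave 0.14, 1 and 7, against 0.16. Each cell weighing the same gave 6 lower. Each cell class weighing the same gave a median of 0.26 and 10 higher, and at Leiden resolution 2, a setting chosen after seeing the data, a median of 0.0323, 2 higher and 7 lower, against all-gene medians of 0.156 and 0.128. For day 3 with AREG over day 3, each cell weighing the same gave a median of 0.0645 and 1 higher, and each class weighing the same gave medians of -0.02 and, at Leiden resolution 2, -0.03, against 0.02. For day 3 over day 1, where 6 were higher and 1 lower, the pseudocount of 10 CPM gave 3 and 0, each cell weighing the same gave 6 lower and each class weighing the same 7 lower; at Leiden resolution 2 the median turned to 0.093, against -0.05, with 0 lower. For day 3 over untreated, where the median was 0.31 with 4 higher and 0 lower, the pseudocount of 10 CPM gave 0.12 and 1 higher, the reduced CPM 0.0895 and 1 higher, and each cell weighing the same 0.10, 1 higher and 1 lower, against all-gene medians of 0.04, 0.1515 and 0.24. The members' median, above that of all genes in the reported values of both comparisons with untreated, lay below it under the reduced CPM and among genes with at least 100 UMIs in both, under class weights at resolution 2 in both, and for day 3 also under class weights and with each cell weighing the same. The causes were not tested. Within parietal-like cells the day 1 over untreated median was 0.10 to 0.14 over the other clusterings, and within pit-like cells 0.09 to 0.38. Neck-like and proliferating-like values for day 1 were not run, since day 1 held fewer than 50 such cells. Over the alternatives the log2 ratio of Hspa1a for day 1 over untreated ran between -1.62 and -1.02, and of Cct2 between 0.66 and 1.31. Depth limits the members under 100 UMIs, whose intervals are wide.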
